A study of Homo sapiens with 9 samples.

Results

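The baseline transcriptome of HCT116 cells that carried the free plasmid was described from 3 of the 9 samples of the series. The 3 samples were chosen by their label as the empty control, and no values of another group were drawn on. HCT116 is a human colorectal carcinoma line whose cells grow as an epithelium in culture. The cells were kept in McCoy's 5A medium with serum and carried an empty vector in place of the lncRNA CRLM1, which is listed as LINC01767. They were compared in the study with cells that overexpressed CRLM1 and with cells that carried its antisense sequence. Total RNA was extracted with TRIZOL, labelled as polyA RNA, and sequenced as paired 151 nt reads. RNA without a polyA tail may therefore be undercounted in all levels below. The study describes the replicates as biological, but the samples are of a single line, so their spread says nothing about other lines or tumors. The vector and any selection marker on it were not analysed here.

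A cell uses only part of its genome. The genes for translation, energy and the cytoskeleton are read in nearly every cell, and tissue genes are read only where their regulators are present. A colon crypt holds stem cells at its base and absorptive, goblet and enteroendocrine cells above them, each with marker genes of its own. All values below are levels within this single condition. They are in FPKM, the fragments per kilobase of gene scaled to the depth of the library, so levels of different genes can be compared per length. Where 3 values are given for a gene, they are those of replicates 1, 2 and 3. Errors are standard deviations over these 3 samples.

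The 3 samples held 44514692, 36292725 and 34947060 counts in genes. A count of 0 in a sample still allows up to 3 counts, or 0.0674, 0.0827 and 0.0858 CPM, which are counts scaled to a fixed total per library. The table of levels listed 31268 genes. A gene was taken as expressed at a mean of at least 1 FPKM, as silent under 0.1 FPKM and as low in between. Near 1 FPKM a gene had a median of 148 counts per sample, and near 0.1 FPKM a median of 3.67 counts. By this rule 11200 genes were expressed, 5991 were low and 14077 were silent. Of the listed genes, 4597 had no count in any of the 3 samples. The deposited list is labelled as expressed genes and covers the whole series, so genes absent from it are not counted. Shares by gene type and by family found by name are therefore shares of listed genes, not of all annotated genes.

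The level of RNA was concentrated in few genes. Of the summed FPKM, 16.1% ± 0.044 (SD, n = 3) lay in the 10 highest genes and 50.5% ± 0.32 in the 100 highest. The 1000 highest genes held 77.7% ± 0.29. In the 3 samples 99, 97 and 96 genes together held 50% of the sum. The 73 genes at 1000 FPKM and over carried 45.8% of the summed mean level, and the 7097 genes from 1 to 10 FPKM carried 6.36%. By counts, which also grow with gene length, the 100 highest genes held 36.2% ± 0.23.

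The 30 highest genes fell into 3 kinds: 8 are encoded by mitochondrial DNA on chromosome M, 12 encode proteins of the cytosolic ribosome, and 10 are others. The highest level was that of MT-CO1, a subunit of cytochrome c oxidase, with 10539, 10264 and 10127 FPKM. MT-CO2, another subunit of that enzyme, had 9697, 10012 and 9882 FPKM. The ranges of the 2 genes did not overlap. RPS2, a protein of the small ribosomal subunit, followed with 9127, 9315 and 9231 FPKM. It was the highest gene of the nuclear genome in all 3 samples. RPS2P5, a processed pseudogene of RPS2, was listed at 1271 ± 24 FPKM, and reads that fit both near-identical copies are not part of uniquely mapped counts, so both levels are uncertain.

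**Figure D1:**
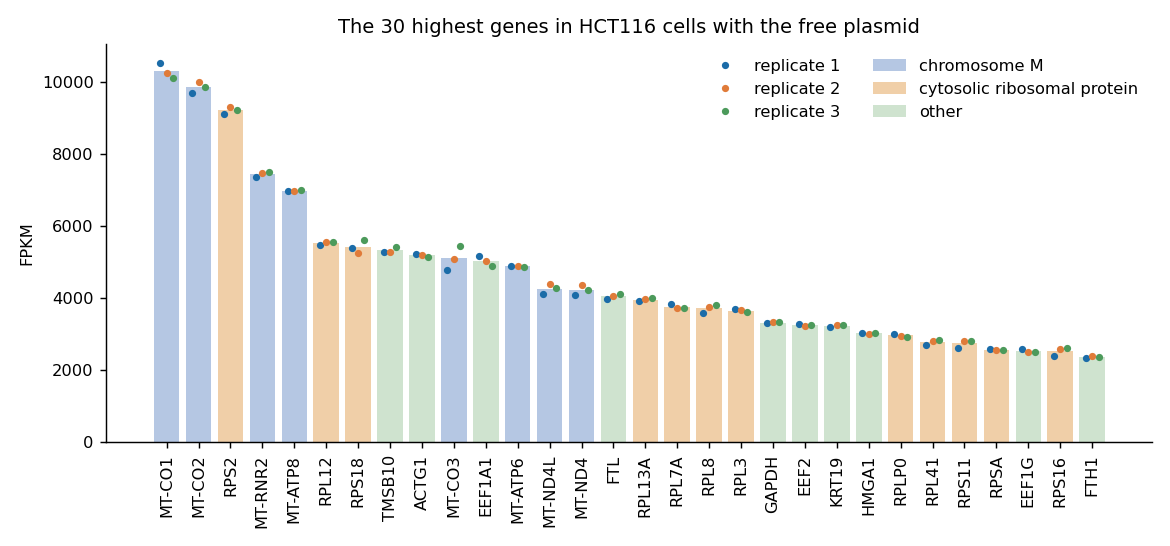
Level in FPKM (linear axis from 0) of the 30 genes with the highest mean, bars for the mean of the 3 samples and points for each replicate. The bars fall from 10310 FPKM for MT-CO1 to 2372 FPKM for FTH1, and the colors separate mitochondrially encoded genes, ribosomal proteins and other genes.

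The order below these genes was often within the spread. Of 30 pairs of neighbors in the order, 14 had overlapping ranges. RPL12, a protein of the large ribosomal subunit, had 5478, 5556 and 5569 FPKM. RPS18, of the small subunit, had 5392, 5246 and 5617 FPKM, which spans the range of RPL12. TMSB10, which binds actin monomers, had 5288, 5286 and 5428 FPKM and lay within the range of RPS18. EEF1A1, which brings aminoacyl-tRNA to the ribosome, had 5162, 5043 and 4884 FPKM, and its range overlapped those of its neighbors MT-CO3 and MT-ATP6. MT-CO3 was the most variable of the 30 genes, with 4785, 5090 and 5443 FPKM and a coefficient of variation of 6.45%. The median over the 30 genes was 1.34%.

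The other genes among the 30 highest serve iron storage, glycolysis, translation, the cytoskeleton and chromatin. FTL and FTH1, the light and heavy chains of the iron store ferritin, had mean levels of 4049 and 2372 FPKM. The ratio of FTL to FTH1 was 1.70, 1.70 and 1.73. GAPDH, an enzyme of glycolysis, had 3298, 3334 and 3324 FPKM. EEF2 and EEF1G, both elongation factors of translation, had means of 3258 and 2529 FPKM. KRT19, a keratin of simple epithelia, had 3197, 3251 and 3257 FPKM. HMGA1, a chromatin protein that is high in many carcinomas, had 3027, 3014 and 3039 FPKM. Its values did not overlap with those of KRT19. ACTG1, the cytoplasmic gamma actin, stood at 5220.4, 5192 and 5157 FPKM.

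Mitochondrially encoded RNA made up 13.9% ± 0.15 of the summed FPKM. Its 13 protein genes held 11.8% ± 0.12, its 2 ribosomal RNA genes 2.08% ± 0.020 and its 22 tRNA genes 0.0474% ± 0.0050. By counts the share of chromosome M was 6.49% ± 0.085. MTATP6P1, a pseudogene copy of MT-ATP6 on chromosome 1, was listed at 1161 ± 21 FPKM. Reads that fit both copies are not part of uniquely mapped counts, so the level of MT-ATP6 and the share of chromosome M are uncertain. MT-RNR2, the large mitochondrial ribosomal RNA, had 7361, 7476 and 7513 FPKM. The transcripts of MT-ATP8 and MT-ATP6 overlap on the DNA, as do those of MT-ND4L and MT-ND4, so their values are not independent. MT-ND6 was the least even of the chromosome M protein genes, with 83.7, 124 and 143 FPKM. It is the protein gene of the other mitochondrial strand, and whether the counting used the strand is not given in the sources used here.

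Proteins of the cytosolic ribosome took 23.9% ± 0.28 of the summed FPKM. Of the 85 such genes found by name, 82 were expressed, 1 was low and 2 were silent. Their median level was 793 FPKM. RPS2 held 8.78% ± 0.10 of the family's sum. Beside these genes and those of chromosome M, the keratins held the highest share of the families searched by name, at 1.29%.

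Gene types differed widely in the share of members that were expressed. Of 16962 listed protein-coding genes, 10203 (60.2%) were expressed and 4049 were silent. They held 94.8% ± 0.15 of the summed FPKM and 96.9% ± 0.056 of the counts. Of 8365 long noncoding genes, 649 (7.76%) were expressed, with 1.46% ± 0.025 of the summed FPKM. Of 3718 pseudogenes, 206 (5.54%) were expressed, with 0.958% ± 0.0063. Of 1558 small noncoding genes, 103 (6.61%) were expressed, with 0.648% ± 0.10. The 46 immunoglobulin and T cell receptor segments held no expressed gene, and 42 of them were silent.

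**Figure D2:**
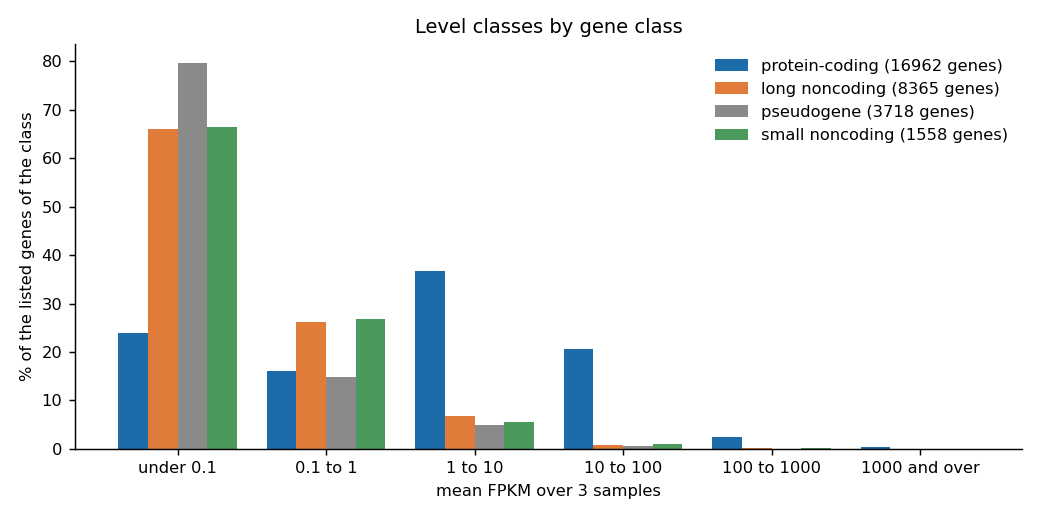
Share of the listed genes of each class (percent, linear axis from 0) in 6 classes of mean FPKM over the 3 samples. Protein-coding genes peak at 1 to 10 FPKM with 36.8% of genes, and 79.6% of pseudogenes, 66.5% of small noncoding and 66.1% of long noncoding genes lie under 0.1 FPKM.

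Long noncoding genes reached 100 FPKM in 9 cases. LRRC75A-AS1, a host of snoRNAs in its introns, was the highest with 529, 544 and 536 FPKM. RP5-940J5.9, labelled antisense, followed with 305, 316 and 344 FPKM, and its range overlapped that of the next gene, SNHG6. SNHG6 had 292, 309 and 316 FPKM, and GAS5 had 266, 279 and 274 FPKM. SNHG6 did not overlap with GAS5. RP11-290D2.6 and MIF-AS1, both labelled antisense, had means of 232 and 112 FPKM, and RP11-793H13.8 had 169 FPKM. Reads of an antisense gene and its partner cannot be told apart where the counting ignored the strand. The highest lincRNA was SNHG8, with 196, 203 and 211 FPKM. ZFAS1, a snoRNA host labelled antisense, had 143, 141 and 144 FPKM. PVT1, the neighbor of MYC, had 28.3, 27.4 and 29.4 FPKM. LINC01767, the lncRNA that the study overexpressed in other samples, is listed under the older name RP4-710M16.2 and had 0 counts in all 3 samples.

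Among small RNAs the 7SL family led in these libraries. Because the RNA was labelled as polyA, levels of small RNAs and rRNA here may not be their levels in the cell. 7SL RNA is the scaffold of the signal recognition particle, which takes new secretory proteins to the endoplasmic reticulum. RN7SL1 had 460, 619 and 720 FPKM on 6851, 7558 and 8496 counts. The entry named RN7SL2 had 615, 860 and 1016 FPKM on only 2450, 2808 and 3208 counts. That entry was therefore counted over a shorter length, and its FPKM does not place it above RN7SL1. RN7SL1 and RN7SL2 were both lowest in replicate 1 and highest in replicate 3, with coefficients of variation of CPM of 22.3% and 24.8%. RN7SL2 carries the type label miRNA in the table. Another locus, named Metazoa_SRP, had 441, 591 and 704 FPKM on 6590, 7235 and 8337 counts. These copies are near identical. SNORD3A, the U3 snoRNA, had 34.8, 34.1 and 42.7 FPKM, and 7SK RNA (RN7SK) had 7.40, 6.22 and 9.18 FPKM. Of 45 listed rRNA genes none reached a mean of 1 FPKM, and the highest was RNA5SP155 at 0.867 ± 0.34 FPKM on 8, 3 and 4 counts.

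Markers of cell types were read from 16 marker lists, and further lists covered pathways and families. The lists and their members were chosen with earlier results of these data known, so they are no independent check of the line's identity. Of 551 different genes on all lists, 267 were expressed, 72 were low and 151 were silent, while 61 did not appear in the tables. Of all listed protein-coding genes 60.2% were expressed, and no list was tested against this share. The base is unlike, since counts for the lists include members that do not appear. All 18 epithelial markers were expressed, with a median of 44.4 FPKM. KRT8 and KRT18, the keratin pair of simple epithelia, had means of 1406 ± 13 and 785 ± 7.0 FPKM. The claudins CLDN7, CLDN4 and CLDN3, proteins of tight junctions, had means of 129, 79.2 and 21.2 FPKM. EPCAM, an adhesion protein of epithelia, had 88.8, 86.2 and 88.5 FPKM, and CDH1, the epithelial cadherin, had 21.0, 19.9 and 20.3 FPKM. CDH3, the placental cadherin, had 62.0, 58.8 and 60.2 FPKM and did not overlap with CDH1. The lowest member, GRHL2, a regulator of epithelial genes, still had 2.04, 2.04 and 2.07 FPKM.

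Colon markers were much less complete. Of the 12 genes of the colon surface and brush border, none was expressed, 2 were low and 9 were silent. MUC13, a membrane mucin, was the highest with 0.40, 0.45 and 0.33 FPKM. CEACAM5, the carcinoembryonic antigen, had 5, 4 and 0 counts and a mean of 0.020 FPKM. VIL1, the microvillus protein villin, had 7, 3 and 7 counts, and CDH17, the liver-intestine cadherin, had 6, 5 and 2 counts. GUCY2C did not appear in the tables. The summed level of the list was 0.77, 0.88 and 0.69 FPKM, against sums of 6044, 6054 and 6089 FPKM for the epithelial markers.

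Of 16 intestinal transcription factors, 9 were expressed, 2 were low and 5 were silent. KLF4 led with 64.1, 63.8 and 63.8 FPKM and held 44.1% ± 0.24 of the list's sum. SOX9, a factor of the crypt base, had 43.3, 41.2 and 41.1 FPKM. KLF5 had a mean of 17.9 FPKM, and TCF7L2, a partner of beta-catenin, had 10.8, 11.15 and 11.03 FPKM. CDX2, the main regulator of intestinal identity, had 2.95, 2.96 and 2.85 FPKM. Its relative CDX1 had 1, 2 and 0 counts. GATA6 and HNF4A had means of 2.17 and 1.03 FPKM, and HNF4A was under 1 FPKM in replicate 1. FOXA1 was low at 0.68 ± 0.18 FPKM, while GATA4 had no count.

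The states of a crypt were represented by single genes rather than by whole lists. Of 14 crypt stem cell genes, 6 were expressed. CD44, the hyaluronan receptor, made up 76.1% ± 0.42 of their sum with 82.9, 84.0 and 81.6 FPKM. MSI1 and BMI1 had means of 7.83 and 6.25 FPKM, and EPHB2, RNF43 and PROM1 had 3.88, 3.76 and 3.36 FPKM. LGR5, the classical marker of crypt stem cells, had 1, 0 and 0 counts. ASCL2 did not appear in the tables. Of 18 genes of absorptive cells, 10 appeared, and CA2 was the only expressed member, with 12.8, 12.9 and 12.7 FPKM. KRT20 was low at 0.37, 0.41 and 0.41 FPKM. Of 12 goblet cell genes 6 appeared and none was expressed, and MUC2, the gel-forming mucin, had 0, 5 and 3 counts.

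**Figure D3:**
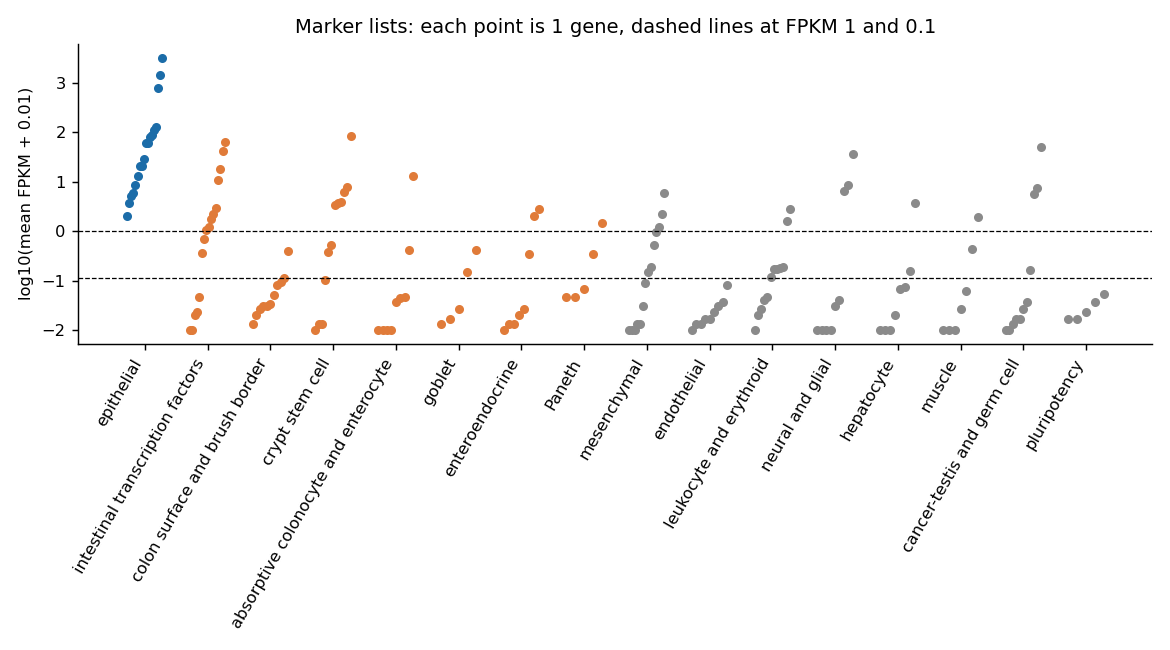
Level of each marker gene as log10(mean FPKM + 0.01) over 3 samples, 1 point for each listed gene, grouped by list, with dashed lines at 1 and 0.1 FPKM. All 18 epithelial markers (blue) lie above the upper line, none of the colon surface, goblet, endothelial or pluripotency genes does, and the other lists have between 1 and 9 points above it.

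Enteroendocrine and Paneth cell lists held 2 and 1 expressed members. SCG2, a granin of secretory granules, had 2.93, 2.77 and 2.79 FPKM. PYY, a gut peptide hormone, had 1.95, 2.26 and 1.76 FPKM on 115, 109 and 82 counts. CHGA, the usual marker of endocrine cells, had 0, 3 and 1 counts. MMP7 was the expressed Paneth cell gene, with 1.36, 1.81 and 1.26 FPKM.

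Markers of other tissues were mostly silent. All 9 endothelial genes were silent and summed to 0.15 ± 0.036 FPKM. Of 19 mesenchymal genes, ACTA2 (6.02 FPKM), FN1 (2.21 FPKM) and COL1A1 (1.20 FPKM) were expressed. VIM, the intermediate filament of mesenchymal cells, had 0.35, 0.63 and 0.57 FPKM. CDH2, DCN and THY1 had no count in any sample. Among leukocyte and erythroid genes, CD33 had 2.76, 2.88 and 2.91 FPKM and CD68 had 1.55, 1.59 and 1.71 FPKM, and PTPRC, which marks all leukocytes, had 0, 1 and 0 counts. The 5 listed pluripotency genes were silent. POU5F1 had 4, 3 and 2 counts.

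A few genes of other tissues stood well above their lists. MAGEA3, a cancer-testis antigen of the X chromosome, had 51.6, 50.8 and 49.9 FPKM and made up 79.3% ± 0.53 of a list of 16 germ cell genes. MAGEA2 had 7.5, 6.87 and 7.83 FPKM and PRAME had 5.61, 5.88 and 5.40 FPKM. MAGEA4 and MAGEA12 had 0 counts. The MAGEA genes are near-identical copies, so the levels of MAGEA3, MAGEA2 and MAGEA6 are uncertain. In the neural list, MBP, a protein of myelin, had a mean of 8.54 FPKM and SYT1, of synaptic vesicles, 6.37 FPKM. TUBB3 stood under 2 identifiers, ENSG00000198211.8 at 35.8 ± 0.68 FPKM and ENSG00000258947.6 at 0.193 ± 0.051 FPKM. The loci overlap, and the values cannot be assigned to either transcript from the table. SERPINA1, a secreted protease inhibitor, was the expressed member of 11 hepatocyte genes with 3.59, 3.94 and 3.78 FPKM. Of 9 muscle genes only DES, the intermediate filament of muscle, was expressed, with a mean of 1.93 FPKM.

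Families of related enzymes usually had a leading member. Glycolysis breaks glucose down to pyruvate through a chain of enzymes, most with several paralogs. SLC2A1, the widespread glucose importer, had 247, 252 and 247 FPKM, which was 12.9 ± 0.19 times the level of SLC2A3. The first enzyme was shared evenly. HK1 had 41.6, 40.4 and 40.2 FPKM and HK2 had 41.2, 39.3 and 39.6 FPKM, and their ranges overlapped. For phosphofructokinase the platelet form led: PFKP had 184, 178 and 179 FPKM, PFKL a mean of 51.4 FPKM and PFKM 25.8 FPKM. None of these ranges overlapped.

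At the later steps a leading form was found as well. ALDOA had 1204 ± 7.2 FPKM, 13.6 ± 0.18 times the level of ALDOC. ENO1 had 2243 ± 38 FPKM and stood 29.9 ± 0.55 times above the neuronal form ENO2. PKM had 672, 652 and 652 FPKM, and PKLR had no count. LDHA had 493, 491 and 474 FPKM and LDHB had 270, 263 and 260 FPKM. LDHA was the higher in every sample, by 1.84 ± 0.024 times. SLC16A3, which exports lactate, exceeded SLC16A1 by 2.43 ± 0.071 times.

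**Figure D4:**
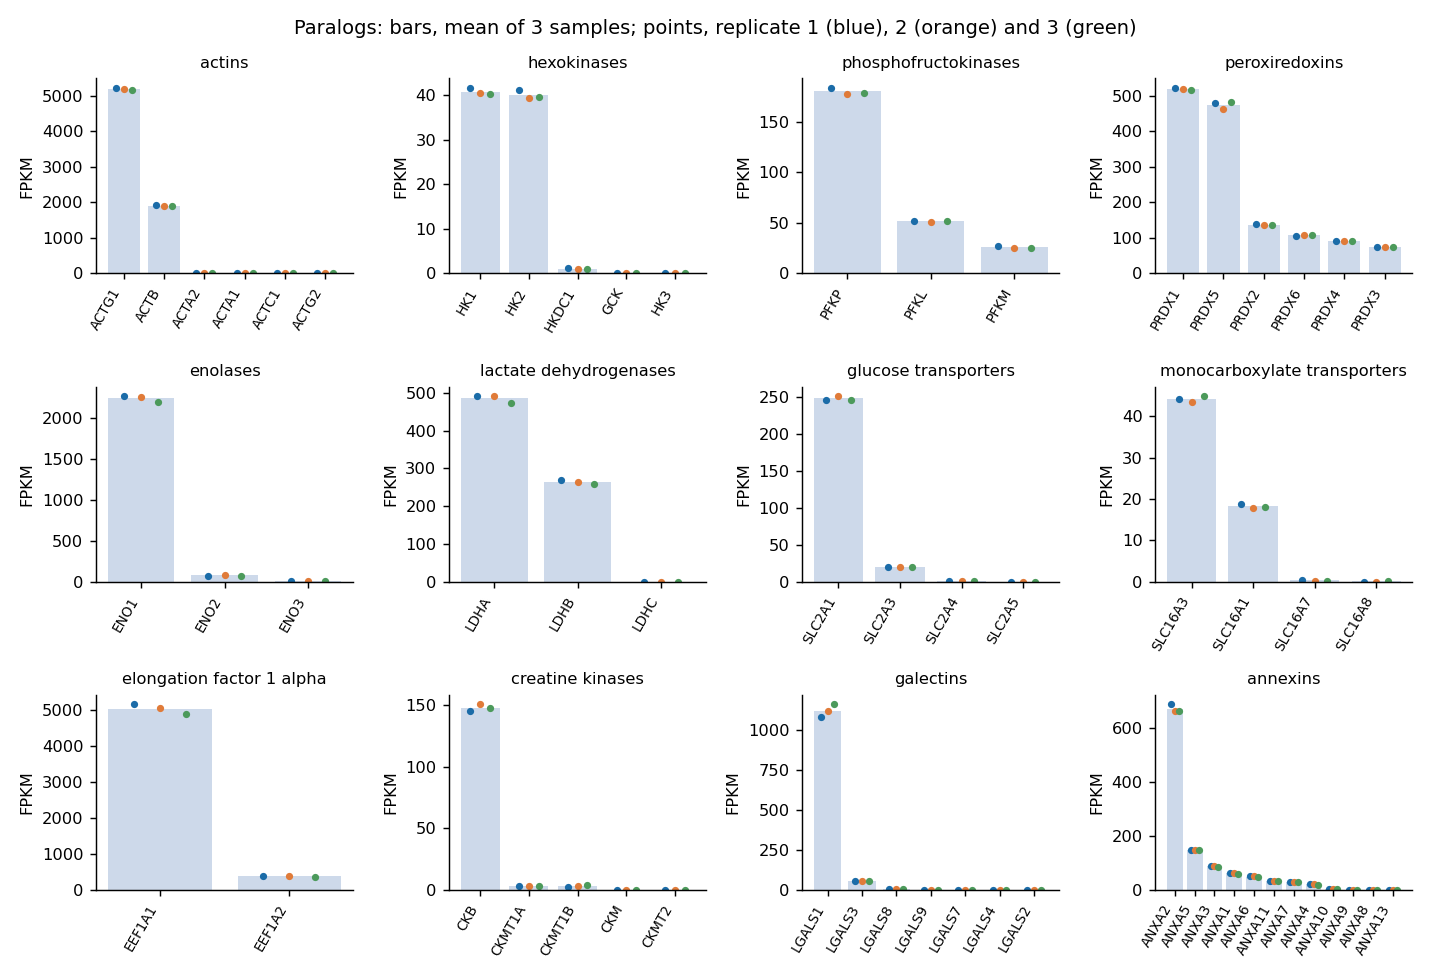
FPKM of the listed members of 12 families of paralogs (linear axes from 0, a scale for each panel), bars for the mean of 3 samples and points for replicates 1 to 3. In most panels 1 member stands far above the rest, while HK1 and HK2 are level at 40.7 and 39.99 FPKM.

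Leading members recurred outside glycolysis. ACTG1 exceeded ACTB by 2.74 ± 0.0068 times, and of the 6 actins these 2 and ACTA2 were expressed. EEF1A2, the form of nerve and muscle, was well expressed with 383, 387 and 367 FPKM, although EEF1A1 was 13.3 ± 0.22 times higher. LGALS1 held 94.97% ± 0.090 of the galectin sum with 1081, 1119.95 and 1164 FPKM. LGALS4, the galectin of the gut, had 5, 1 and 2 counts. S100A6 had 1412, 1429 and 1505 FPKM and S100A14 had 325, 315 and 319 FPKM, and S100A9 had no count. ANXA2 had 691, 663 and 666 FPKM and held 61.0% ± 0.43 of the annexin sum. All 6 peroxiredoxins, which reduce peroxides, were expressed, from 74.7 FPKM for PRDX3 to 519.7 FPKM for PRDX1. In this family PRDX5 stood close to PRDX1 with 474 FPKM, and PRDX1 held 37.0% of the sum. Of 5 creatine kinases CKB, the brain form, led with a mean of 148 FPKM.

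Among signaling genes, all 6 members of the RAS and RAF list were expressed. HRAS had 32.9, 34.0 and 33.6 FPKM and NRAS a mean of 13.99 FPKM, and HRAS was the higher in each sample. Of 51 receptor tyrosine kinases, 22 (43.1%) were expressed and 4 did not appear, against 60.2% expressed of all listed protein-coding genes. EPHA2, an ephrin receptor, had 141, 139.64 and 140.08 FPKM and held 41.0% ± 0.55 of the sum. DDR1, a receptor for collagen, had a mean of 34.0 FPKM, followed by AXL with 28.1 FPKM and MET, the receptor of hepatocyte growth factor, with 27.2 FPKM. The ranges of AXL and MET overlapped. EGFR had 11.5, 10.7 and 10.9 FPKM, and ERBB2 had 4.91, 5.16 and 4.69 FPKM. KIT, ALK and FLT1 had no count in any sample.

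In the TGF-beta pathway 17 of 23 genes (73.9%) were expressed, against 60.2% of all listed protein-coding genes. SMURF2, a ubiquitin ligase that acts on the pathway, had 82.3, 82.5 and 80.4 FPKM, 8.03 ± 0.082 times the level of SMURF1. The ligand TGFB1 had 26.5, 26.3 and 28.0 FPKM, and TGFB2 and TGFB3 were at 0.090 and 0.19 FPKM. SMAD3 had a mean of 26.2 FPKM, SMAD4 5.23 FPKM and SMAD2 2.75 FPKM. The receptor TGFBR2, in which many colorectal tumors with unstable repeats carry frameshifts, had 5.29, 5.57 and 5.42 FPKM, and TGFBR1 had 1.68, 1.76 and 1.49 FPKM.

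Of 21 genes of the cell cycle, which are cyclins, cyclin-dependent kinases, their inhibitors and RB1, 17 were expressed. CDKN1A, the inhibitor p21 and a target of p53, was the highest with 319, 318 and 321 FPKM. CCND1 had 162, 160.47 and 156 FPKM, 38.8 ± 1.5 times the level of CCND3, and CCND2 had no count. CDK4 had 78.7, 77.7 and 79.9 FPKM, 18.3 ± 0.71 times the level of CDK6. CDKN2A had 20.5, 20.8 and 19.4 FPKM. A further list held 31 genes that the study examined, chosen by its authors with these samples among others, and 20 of them were expressed. HNRNPK, an RNA-binding protein, led it with a mean of 182 FPKM. BBC3, the p53 target PUMA, had 55.6, 50.3 and 55.6 FPKM. SNAI1, a repressor of CDH1, had a mean of 6.17 FPKM and ZEB1, another such repressor, 0.137 FPKM.

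Mismatch repair, which corrects errors of replication, is known to be defective in HCT116. At the level of RNA all 9 listed genes were detected, 7 as expressed and 2 as low. MSH6 had 1.92, 1.63 and 1.56 FPKM and PMS2 had 6.57, 6.37 and 6.35 FPKM. MSH3 was low with 0.39, 0.37 and 0.38 FPKM. FPKM does not tell whether a transcript can make protein.

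Of 8 genes of DNA methylation 4 were expressed, 2 were low and 2 were silent. DNMT1, which copies DNA methylation at replication, had 18.5, 18.2 and 17.4 FPKM. DNMT3B had a mean of 2.23 FPKM and DNMT3A 0.953 FPKM, and their ranges did not overlap. All 7 genes of the Polycomb repressive complex 2 list were expressed, from 2.93 FPKM for EED to 18.0 FPKM for RBBP7, and EZH2 was 1.82 ± 0.13 times higher than EZH1. Of 7 APOBEC3 cytidine deaminases 5 were expressed. APOBEC3C had 19.4, 18.6 and 19.6 FPKM and APOBEC3B had 18.2, 16.5 and 18.0 FPKM. Among genes of telomerase and telomeres, DKC1, a protein of the telomerase complex, had a mean of 20.9 FPKM and TERF2, which binds telomere repeats, 18.6 FPKM. TERT, the catalytic subunit of telomerase, was low with 0.29, 0.33 and 0.32 FPKM. TERC, its RNA component, had 13, 5 and 5 counts, and the label polyA RNA leaves its level in the cell uncertain.

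Of 21 innate immune sensors and adaptors, which include receptors for nucleic acid and for other microbial or danger signals, 5 were expressed. The adaptor MAVS had 12.2, 11.8 and 11.2 FPKM, STING (TMEM173) had 6.74, 5.84 and 6.71 FPKM, and the RNA sensors DDX58 and IFIH1 had means of 1.85 and 1.61 FPKM. MB21D1, the DNA sensor cGAS upstream of STING, had 3, 1 and 0 counts. TLR4, TLR7 and TLR8 had at most 1 count in any sample. NLRP3 had a mean of 0.073 FPKM. Of 11 caspases 8 (72.7%) were expressed, against 60.2% of all listed protein-coding genes. CASP4 led them with 11.8, 11.6 and 13.2 FPKM, and CASP1 had 2, 1 and 4 counts.

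Of 48 nuclear receptors, 23 (47.9%) were expressed and 5 did not appear, against 60.2% expressed of all listed protein-coding genes. NR1D1, a repressor of the circadian clock, had 69.9, 71.5 and 70.5 FPKM and held 24.0% ± 0.29 of the list's sum. ESRRA, NR1H2 and PPARD had means of 33.5, 22.9 and 19.6 FPKM. PPARG had 18.1, 17.7 and 16.9 FPKM, and VDR 1.5, 1.46 and 1.75 FPKM. ESR1 had 2, 2 and 0 counts, and PGR and RORA had none.

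Genes that handle colorectal cancer drugs were read unevenly. Of 21 such genes 16 (76.2%) were expressed, against 60.2% of all listed protein-coding genes. UPP1, uridine phosphorylase, had 142, 146 and 144 FPKM. TYMS, the target of fluorouracil, had 27.4, 26.7 and 26.6 FPKM. TOP1, the target of irinotecan, had 34.4, 34.7 and 33.5 FPKM. DPYD, which breaks fluorouracil down, was low with 0.19, 0.20 and 0.17 FPKM on 53, 45 and 38 counts. ABCB1, a drug exporter, was low as well at 0.24, 0.21 and 0.28 FPKM, while its relative ABCC1 had 14.5, 13.9 and 13.6 FPKM. Of 18 tumor surface antigens 12 were expressed, led by CDCP1 with 106, 103 and 98.1 FPKM. Tissue factor (F3) had a mean of 46.6 FPKM, mesothelin (MSLN) 26.5 FPKM and PD-L1 (CD274) 2.70 FPKM.

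Large families found by name ranged from nearly all expressed to nearly all silent, where 60.2% of all listed protein-coding genes were expressed. Of 40 proteasome subunits 37 were expressed, led by PSMB4 with 232, 235 and 227 FPKM. Of 328 solute carriers 170 (51.8%) were expressed and 114 silent. SLC25A5, which exchanges ADP and ATP across the inner mitochondrial membrane, led with 376, 376 and 365 FPKM, and SLC3A2 and SLC7A5, the 2 chains of an amino acid transporter, had means of 235 and 201 FPKM. Of 461 zinc finger genes 192 (41.6%) were expressed, and none passed 42.9 FPKM. Of 47 keratins 13 were expressed, and KRT19 held 56.9% ± 0.44 of their sum. Of 38 collagens 9 were expressed, led by COL6A2 with 43.9, 43.6 and 43.4 FPKM.

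At the other end, 2 of 42 listed olfactory receptors were expressed. OR51B4 had 5.76, 6.90 and 5.80 FPKM and OR51B5 had 2.84, 2.79 and 2.70 FPKM. A total of 22 of the 42 had no count. OR51B4 lies within the annotated span of the globin gene HBE1 on the same strand. Whether exons of the 2 genes overlap was not examined, so it is not known how far they share reads. None of 13 listed bitter taste receptors and none of 5 listed defensins was expressed. Of 32 keratin-associated proteins, which build hair, 2 were expressed. KRTAP2-3 had 70.5, 68.1 and 70.4 FPKM on 3074, 2433 and 2431 counts and held 92.6% ± 0.60 of the family's sum. KRTAP3-1 followed with 3.62, 2.76 and 3.71 FPKM. KCNG1 stood out among 28 voltage-gated potassium channels with 32.9, 34.2 and 34.4 FPKM. Of 38 cytochrome P450 enzymes 12 were expressed, led by CYP51A1 of sterol synthesis with 22.9 FPKM, and of 8 crystallins only CRYGS was, with 1.13 FPKM. IL18 led 27 interleukins with 56.9, 57.7 and 52.7 FPKM, or 71.8% ± 1.3 of their sum.

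The DNA around gene starts was read to see what genes of like level share. Starts and sequences are those of GENCODE version 44 on the genome build GRCh38, which the submitters' processing notes also name. For each protein-coding gene the window ran from 250 bases before to 50 bases after the start of the canonical transcript, and 16815 of 16949 nuclear genes had a window. CpG dinucleotides are where human DNA is methylated, and windows that keep many of them are known as CpG islands. The ratio of observed to expected CpG is shown by a pair of contrasting genes, with every CpG in capitals, from 250 bases before to 20 bases after the start. The window of JUP, an epithelial junction gene at 111 FPKM, is chr17:41786692-41786961 on the minus strand and holds 17 CpG. The window of CEACAM5, at 0.020 FPKM, is chr19:41708376-41708645 on the plus strand and holds 2. CDX1, with 3 counts in all, is shown as a silent gene whose window, chr5:150166528-150166797 on the plus strand, holds 29 CpG. Such windows were not rare, as 37.3% of the windows of silent genes had a ratio of at least 0.6.
JUP: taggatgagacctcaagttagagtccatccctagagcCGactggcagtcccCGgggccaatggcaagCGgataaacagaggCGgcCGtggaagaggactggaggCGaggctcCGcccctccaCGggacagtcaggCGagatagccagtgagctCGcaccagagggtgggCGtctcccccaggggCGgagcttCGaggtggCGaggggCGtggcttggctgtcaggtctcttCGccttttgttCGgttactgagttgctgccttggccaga
CEACAM5: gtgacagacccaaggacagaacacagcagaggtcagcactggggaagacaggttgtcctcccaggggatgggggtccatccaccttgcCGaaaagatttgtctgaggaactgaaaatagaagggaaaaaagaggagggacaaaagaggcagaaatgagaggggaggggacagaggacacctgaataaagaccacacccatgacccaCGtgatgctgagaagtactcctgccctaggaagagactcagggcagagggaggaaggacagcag
CDX1: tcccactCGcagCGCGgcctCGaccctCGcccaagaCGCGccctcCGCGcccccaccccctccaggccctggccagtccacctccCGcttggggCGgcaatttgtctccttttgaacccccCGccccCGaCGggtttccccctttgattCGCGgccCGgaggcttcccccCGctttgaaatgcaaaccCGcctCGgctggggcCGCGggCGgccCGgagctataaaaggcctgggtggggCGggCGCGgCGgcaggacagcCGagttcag

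The CpG ratio was lowest in the silent genes and lay close together in the classes from 1 FPKM up. Its median was 0.405 in 3984 windows of silent genes, 0.769 in 2671 windows of low genes and 0.865 in 6212 windows of genes at 1 to 10 FPKM. It was 0.878, 0.875 and 0.930 in the 3 classes above. A ratio of at least 0.6 was found in 37.3% of the silent genes, 88.4% of those at 1 to 10 FPKM and 94.9% of the 59 windows at 1000 FPKM and over, and in 74.2% of all windows. Among the 11 colon surface genes no window reached 0.6, and their median was 0.220. Among the 18 epithelial genes 13 (72.2%) did, with a median of 0.682, against a median of 0.810 in all windows. The low ratio was not particular to the colon surface genes. The median was 0.212 in 9 windows of absorptive cell genes and 0.297 in 9 windows of endothelial genes. It was 0.410 in 14 windows of mesenchymal genes and 0.425 in only 4 windows of goblet cell genes. The median GC content was 57.7% in silent genes, 67.3% at 1 to 10 FPKM and 62.0% at 1000 FPKM and over.

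Starts of the highest genes also shared a run of pyrimidines. Messages of the translation machinery are known to begin with a C followed by pyrimidines, the 5' terminal oligopyrimidine tract. A C followed by at least 4 further C or T, beginning within 5 bases of the start on the strand of the gene, was searched for after the levels had been seen. The 4 starts below are those of high genes of translation, from 30 bases before to 20 bases after the start, with the run in capitals. They lie at chr16:1964807-1964856 on the minus strand (RPS2), chr9:127451387-127451436 on the minus strand (RPL12), chr6:33272045-33272094 on the plus strand (RPS18) and chr6:73521013-73521062 on the minus strand (EEF1A1).
RPS2: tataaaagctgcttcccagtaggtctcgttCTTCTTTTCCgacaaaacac
RPL12: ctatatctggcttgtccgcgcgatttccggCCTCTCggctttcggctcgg
RPS18: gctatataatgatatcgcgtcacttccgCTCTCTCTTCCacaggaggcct
EEF1A1: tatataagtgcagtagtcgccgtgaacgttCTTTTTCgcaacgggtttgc

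The run was found in 22.1% of all windows. The share was 21.2% in silent genes, 21.1% at 1 to 10 FPKM, 22.9% at 10 to 100 FPKM, 34.9% at 100 to 1000 FPKM and 81.4% at 1000 FPKM and over. In the last class it was found in 35 of 39 ribosomal protein genes and in 13 of 20 other genes.

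The letters TATAAA, the core of the TATA box, were searched for on the strand of the gene from 40 to 20 bases before the start. They were found in 3.16% of all windows. The share was 7.08% in silent genes, 1.11% at 1 to 10 FPKM, 1.79% at 10 to 100 FPKM, 8.89% at 100 to 1000 FPKM and 8.47%, or 5 windows, at 1000 FPKM and over. Both ends of the range of levels thus held more of them than the middle. RPS2 is among the 5, and the first letters of its sequence above are the match. KRTAP2-3, the highest of its family, also has the match, in capitals below in the stretch from 60 bases before to 20 bases after its start (chr17:41060095-41060174, minus strand).
KRTAP2-3: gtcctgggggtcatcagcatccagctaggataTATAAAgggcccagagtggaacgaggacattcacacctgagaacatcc

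**Figure D5:**
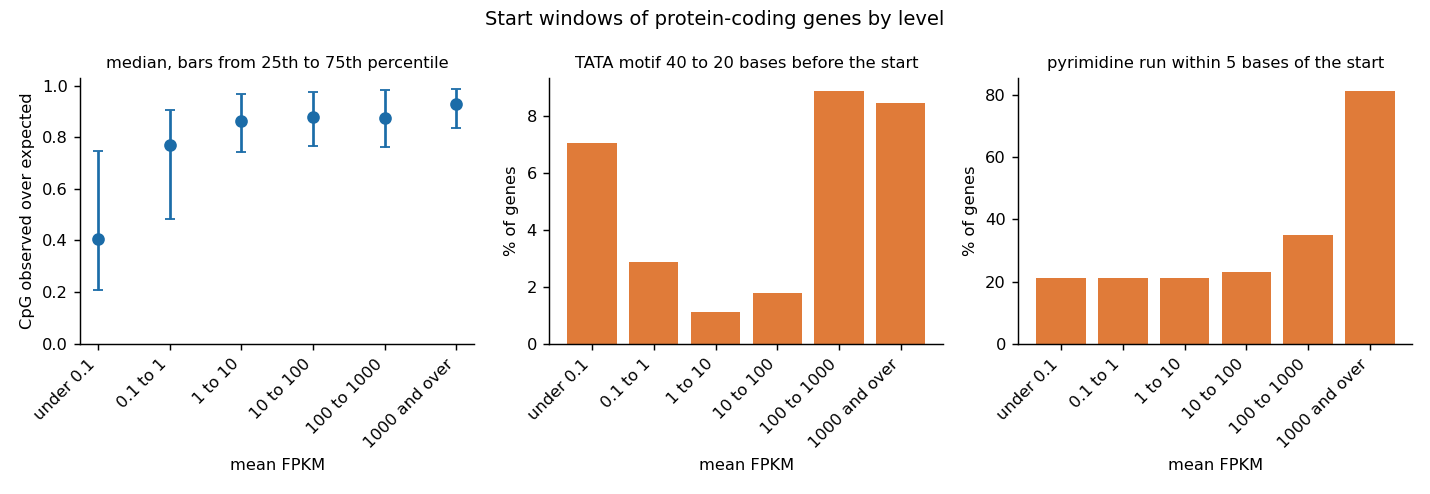
Start windows of 16815 protein-coding genes by mean FPKM class: left, median CpG ratio with bars from the 25th to the 75th percentile; middle and right, share of genes (percent, axis from 0) with a TATAAA match or a pyrimidine run. The CpG ratio is lowest under 0.1 FPKM (0.405), the TATAAA share is lowest at 1 to 10 FPKM (1.11%) and the pyrimidine run is most frequent at 1000 FPKM and over (81.4%).

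The replicates were close to each other. Across the 31268 listed genes the Pearson correlation of log2(FPKM + 0.1) was 0.991 for all 3 pairs, where genes are not independent and share library and length. For the 11531 genes with a mean of at least 100 counts, the median coefficient of variation of CPM was 3.92%, against 3.30% from counting alone. The part of counting in the spread was not tested. The biological coefficient of variation that edgeR estimated over these genes was 3.07%. The spread was narrower at higher counts, with a median of 5.84% at 100 to 1000 counts and 1.65% at 10000 counts and over. A coefficient of at least 20% was reached by 74 of the 11531 genes, and none of these had 10000 counts.

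The least even of the protein-coding genes with at least 100 counts was ASPM, a gene of the mitotic spindle, with 3.55, 2.20 and 2.06 CPM and a coefficient of 31.5%. NBPF26, of a family of near-identical copies, had 4.31, 3.28 and 6.07 CPM. CKMT1B, a mitochondrial creatine kinase with a near-identical copy CKMT1A, had 4.67, 7.63 and 8.10 CPM. The others of the 10 least even genes were RBM45, ARMCX5, C3orf67, N4BP2, MT-ND6, THNSL1 and FAM83B, with coefficients from 24.1% to 27.8%. Replicate 1 was the farthest from the median in 5 of the 10 genes.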

How the data were processed

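RNA-seq of HCT116 cells with the free plasmid was analysed (3 samples). The deposited tables hold read counts per gene and FPKM. According to the methods, the authors dropped reads with more than 2 N bases, trimmed reads with FASTX-Toolkit, discarded those shorter than 16 nt, and used TopHat2 with up to 4 mismatches to place the reads on GRCh38. Uniquely mapped reads were counted over GENCODE version 23 genes, and the authors turned the counts into FPKM. The submitters' processing notes also name bcl2fastq and edgeR. Whether counting used the strand is not given in the sources used here, so antisense and overlapping genes are uncertain, and near-identical copies lose shared reads.

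Levels, shares and coefficients of variation were computed with Python 3.11.15, pandas 2.3.3 and NumPy 2.4.6, figures with matplotlib 3.10.9. The biological coefficient of variation came from edgeR 4.0.16 in R 4.3.3, from the counts, and the script was tested on simulated data. A gene was expressed at a mean of at least 1 FPKM and silent under 0.1 FPKM, and coefficients of variation used genes with a mean of at least 100 counts. A gene that appears in the count table alone, such as LGR5, was judged by its counts. No test between groups was run. Intervals were not given, and the limit for a count of 0 covers counting error only.

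Named genes were the 30 highest, the 5 highest of each gene type with at least 20 listed genes, members of the gene lists and families (at most the 5 highest of a family found by name) and the 10 protein-coding genes with the highest coefficient of variation. The members and lists were chosen with earlier results of these data known. Start windows (250 bases before to 50 after) were cut from GRCh38 at the canonical starts of GENCODE version 44, because the RefSeq promoter table covered too few genes. The pyrimidine run was added after the data were seen. Some members of the lists are not reported here.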

Additional observations from a re-analysis of the deposited data

How the results depend on the processing

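The number of expressed genes depended on the limit. It was 17191 at a mean of at least 0.1 FPKM, against 11200 at 1 FPKM. The other limits and units gave 10911 to 15093 genes. The share of protein-coding genes was 96.9% by counts and 96.4% without chromosome M, against 94.8%. The share of the 100 highest genes was 36.2% by counts and 44.8% without chromosome M, against 50.5%. The median coefficient of variation was 5.34% for genes with a mean of at least 10 counts and 3.87% with TMM factors, against 3.92%, and 3.01% to 3.37% with any 1 replicate left out, where only 2 samples remain. The lowest correlation between replicates was 0.998 with a pseudocount of 1, against 0.991. The median CpG ratio of silent genes was 0.333 when silent meant 0 counts in every sample, against 0.405. The number of expressed genes on the lists was 284 at 0.5 FPKM and 335 at 10 counts in every sample, against 267. The causes were not tested. Leaving out each replicate gave 11188 to 11201 expressed genes. No paired analysis was possible because the result comes from no test. A gene near 0.1 FPKM rests on few counts, so an order among silent genes was not detectable at this depth.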

Other observations

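The genes and values here were chosen after their values were seen. HBE1, the embryonic epsilon globin of the beta-globin locus, ranked 249th of all listed genes with 202, 193 and 199 FPKM on 9230, 7207 and 7188 counts. HBG2, a fetal globin of the same locus, had 24.9, 25.7 and 25.1 FPKM. HBG1, its near-identical copy, had a mean of 0.090 FPKM, and the alpha globins HBA1 and HBA2 had 0.163 and 0.167 FPKM. The annotated spans of HBE1 (chr11:5268345-5505652, minus strand, GRCh38) and HBG2 (chr11:5253188-5505605, minus strand) overlap each other and OR51B4 (chr11:5301014-5301946, minus strand). Whether their exons overlap was not examined, so it is not known how far they share reads.

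FP236383.4, a locus on chromosome 21 labelled miRNA, had 308 counts in replicate 1 and 0 in the others. It was the only gene with at least 50 counts in 1 sample and at most 2 in each of the others.

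The replicates also differed by gene length. For the 58 genes under 500 nt, the median log2 deviation of a replicate from the mean of the 3 was -0.05, 0.00 and 0.06 in replicates 1, 2 and 3. Across 11214 genes, which are not independent, Pearson's correlation of the deviation with log2 length was 0.181, -0.006 and -0.174. The 7SL copies, which are short, differed in the same direction. The part of length in their difference was not tested.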
